A study of Sus scrofa with 6 samples.

Results

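Kidney injury markers are genes whose products are measured in urine, plasma or tissue as signs of stress to the renal tubule, and the 10 examined here were TIMP2, IGFBP7, VCAM1, SPP1, CLU, VIM, CD44, SOX9, PLAUR and ANXA2. RNA of the renal cortex was hybridised to 1-colour Agilent pig arrays, with a single array for every kidney, and the animals were Large White pigs 3 months of age. In the ischemia group (n = 3), the clamped organ spent 60 min at 37 °C, was rinsed with chilled University of Wisconsin fluid, which is used to preserve organs, and then lay at 4 °C for 24 h before sampling. The control kidneys (n = 3) were sampled as soon as they had been removed. Within each group the kidneys came from different pigs, and the labels do not say whether the groups shared animals. The labels describe no reperfusion, and clamping, rinse and cold storage form 1 sequence that this design cannot split. Members were the probes whose gene name in the scanner files is 1 of the 10 symbols. This gave 14 of 43603 probes, and 7 of the 10 genes: 1 probe each for TIMP2, VCAM1, CLU and SOX9, 3 each for IGFBP7 and ANXA2, and 4 for SPP1. No probe carried the names VIM, CD44 or PLAUR. Of the 14 probes, 13 were well above background on all 6 arrays and were tested, and the SOX9 probe was not above background on any.

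TIMP2 encodes an inhibitor of matrix metalloproteinases and IGFBP7 a secreted protein that binds insulin-like growth factors. Both proteins are linked to cell cycle arrest in stressed tubule cells, and their urinary levels are used together in a clinical test for risk of acute kidney injury. VCAM1 is an adhesion molecule for leukocytes and, in rodent and human kidneys, a marker of proximal tubule cells that fail to repair. SPP1 (osteopontin), CLU (clusterin, a secreted chaperone), the transcription factor SOX9, the intermediate filament VIM, the hyaluronan receptor CD44, the urokinase receptor PLAUR and the membrane-binding annexin ANXA2 are raised in injured tubules in many rodent studies.

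The arrays read each gene through probes of 60 bases whose sequence and start within a RefSeq transcript stand in the scanner files. These files give no genome position for the member probes, and none is added here. The probes below are those on which the statements about SPP1, TIMP2, IGFBP7 and ANXA2 rest, written 5′ to 3′. The first pair of SPP1 probes overlap, and their capitals mark the 29 shared bases, so these 2 are not independent readings. The capitals in the SPP1 probe A_72_P441454 mark the stop codon at its end, which places this probe at the end of the coding sequence, at bases 949 to 1008 of the transcript. The overlapping pair covers bases 222 to 281 and 253 to 312, and the fourth SPP1 probe, A_72_P743571, bases 1222 to 1281.
SPP1 A_72_P733328: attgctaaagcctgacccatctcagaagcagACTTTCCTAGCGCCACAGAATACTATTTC
SPP1 A_72_P744403: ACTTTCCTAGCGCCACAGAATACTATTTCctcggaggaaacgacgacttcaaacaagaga
SPP1 A_72_P441454: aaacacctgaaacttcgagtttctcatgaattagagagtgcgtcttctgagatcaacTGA
TIMP2 A_72_P321983: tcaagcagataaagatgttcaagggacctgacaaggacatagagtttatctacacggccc
IGFBP7 A_72_P422899: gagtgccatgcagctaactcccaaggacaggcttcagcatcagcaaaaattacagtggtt
IGFBP7 A_72_P680993: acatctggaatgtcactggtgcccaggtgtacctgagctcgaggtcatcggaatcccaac
ANXA2 A_72_P570709: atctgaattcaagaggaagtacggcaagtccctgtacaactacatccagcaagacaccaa

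The markers did not move as a block. VCAM1 was the only tested member whose 3 ischemia values all lay above the 3 control values. TIMP2 lay higher on average, IGFBP7 was nearly level between the groups, CLU lay lower, ANXA2 was high in 1 ischemia kidney, and SPP1 was very high in 2 ischemia kidneys and very low in the other. No member probe passed the test, limma across 25013 probes with a Benjamini-Hochberg adjusted p under 0.05 taken as a call; the smallest adjusted p among them was 0.751. That threshold was passed by 1 probe in all (0.004% of those tested). At an unadjusted limma p under 0.05, 1 of the 13 member probes was higher in ischemia kidneys, against 2.99% of all probes, and 0 were lower, against 3.31%. In either direction 6.3% of all probes reached it, and 9.26% with slide as a block, where 0 member probes did. Leaving out ischemia 1, 1 member probe reached it (VCAM1, against 5.71% of all probes). Without ischemia 2 it was 0 (4.89%), and without ischemia 3 it was 4 (all SPP1, 7.89%). Without control 1 it was 1 (TIMP2, 11.7%), without control 2 it was 0 (3.19%), and without control 3 it was 1 (VCAM1, 6.78%). Of the 13, 1 had all ischemia arrays above all control arrays, against 5.88% of all probes, and 0 had them all below, against 5% of all probes. The median difference, ischemia minus control, was 0.31 on the log2 scale over the 13 probes and -0.04 over all probes tested, with 9 member probes higher and 4 lower, against 44.2% of all probes higher. Of the 9, 4 were SPP1 and 3 ANXA2 probes, which are repeat readings of these genes. Leaving out 1 array moved that median to as little as 0.019 (ischemia 2 left out), 0.097 (ischemia 1) and 0.16 (control 1). Levels below are log2 signals relative to the 75th percentile of each array, and all differences are ischemia minus control on that scale. With 3 kidneys a group the precision is limited by their number, and an exact permutation test of single probes cannot give a p under 0.1.

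**Figure D1:**
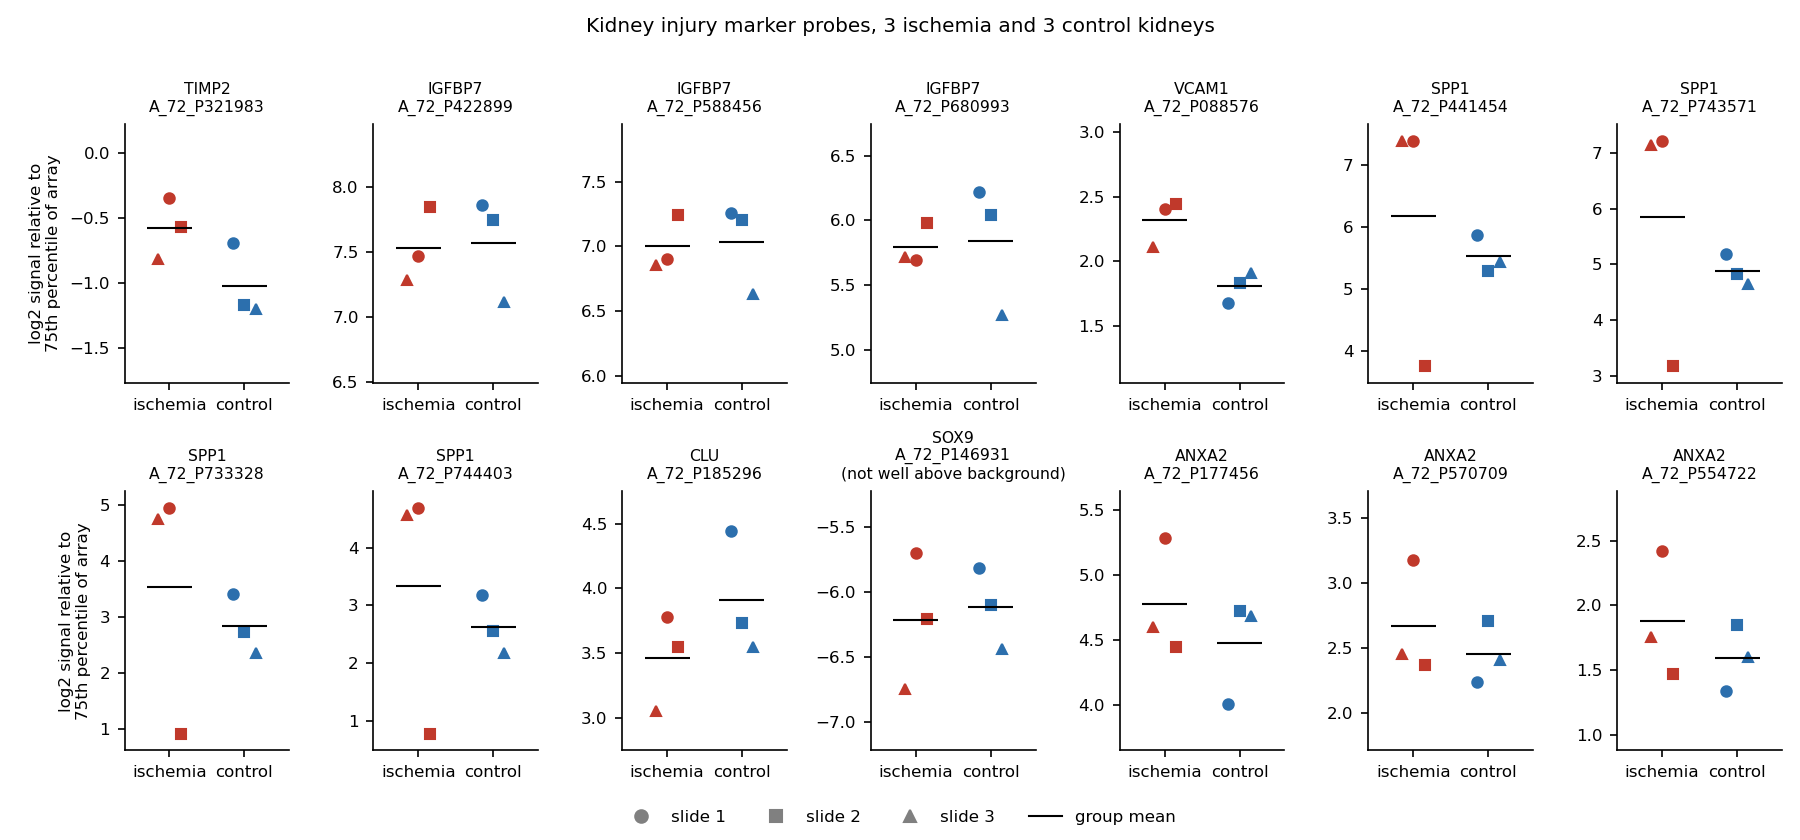
Log2 signal relative to the 75th percentile of its array (vertical axis, scaled per panel) for each of the 14 member probes, with the 3 ischemia kidneys on the left and the 3 control kidneys on the right; marker shapes give the slide and lines the group means. The VCAM1 groups do not overlap, and the 4 SPP1 panels show 2 ischemia kidneys above and 1 below all controls.

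TIMP2 lay higher in ischemia kidneys by a small amount that did not pass the test. Its level was -0.82, -0.35 and -0.57 in ischemia kidneys 1 to 3, against -0.69, -1.17 and -1.20 in control kidneys 1 to 3. The groups overlapped, because ischemia 1 lay below control 1. The difference was 0.44 ± 0.23 (SE, n = 3 per group), a signal 1.36-fold higher, with a 95% interval of -0.11 to 0.99 (limma adjusted p = 0.872). The 3 slides each carried 1 ischemia and 1 control array, and within slides 1, 2 and 3 the TIMP2 differences were 0.35, 0.60 and 0.38. With slide as a block the unadjusted limma p of TIMP2 was 0.0652 (adjusted 0.565). Metalloproteinases and their other inhibitors were looked at beside TIMP2. Of 12 metalloproteinase and inhibitor genes, 6 were tested and 0 reached an unadjusted limma p under 0.05, with 4 higher, 2 lower and a median difference of 0.13. MMP14, a membrane protease that activates MMP2 together with TIMP2, was at 0.58 ± 0.26 (SE), with ischemia values of 3.14, 3.13 and 3.87 above control values of 2.93, 2.80 and 2.66. MMP2, gelatinase A, gave 0.55 ± 0.29, and its dimmer probe gave 0.66.

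IGFBP7 had nearly equal means in the groups on all 3 of its probes. On the brightest, A_72_P422899, the level was 7.28, 7.47 and 7.85 in ischemia kidneys, against 7.86, 7.74 and 7.11 in control kidneys. The ranges nearly coincided, and the lowest value belonged to control 3. The difference was -0.04 ± 0.27 (SE, n = 3 per group), with a 95% interval of -0.68 to 0.60 (limma adjusted p = 0.988). The other 2 probes differed by -0.03 and -0.05. The 95% intervals of the 3 probes together ran from -0.72 to 0.62, so differences within that range were not excluded. Within slides the brightest probe differed by -0.39, 0.10 and 0.17, and the sign of its mean difference turned with the scaling (0.11 with each array centred on its median, 0.18 in the deposited values).

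No other gene of the insulin-like growth factor axis passed the test. Of 14, 10 were tested, with 3 higher, 7 lower, 0 at an unadjusted limma p under 0.05 and a median difference of -0.08. IGFBP2, another binding protein, was at -0.40 ± 0.29 (SE) and IRS1, an adaptor of the insulin and IGF receptors, at -0.38 ± 0.33. The named genes whose values followed those of IGFBP7 most closely over the 6 arrays were TCTN2 (Pearson r 0.992), RAB27A (0.985) and IGFBP5 (0.975), out of 2973 compared. IGFBP5 encodes a further IGF binding protein and had levels of 3.91, 4.10 and 4.55 in ischemia kidneys, against 4.84, 4.45 and 3.45 in control kidneys. With only 6 arrays, 81 of the 2973 genes had an r over 0.9 with IGFBP7, so the likeness is a description. For TIMP2 the closest were FCER1G, the gamma chain of Fc receptors (r 0.993), STX16 (0.982) and NAB2 (0.974), and 53 genes had an r over 0.9.

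VCAM1 lay higher in every ischemia kidney than in any control kidney. Its level was 2.11, 2.40 and 2.44 in ischemia kidneys, against 1.68, 1.83 and 1.91 in control kidneys. The gap between the groups was small but both groups were tight. The difference was 0.51 ± 0.19 (SE, n = 3 per group), a signal 1.43-fold higher, with a 95% interval of 0.05 to 0.97. The unadjusted limma p was 0.0332 and the adjusted p 0.751, so VCAM1 did not pass over all probes. Within slides VCAM1 differed by 0.72, 0.61 and 0.20. Taking slide as a block, VCAM1 had an unadjusted limma p of 0.0522 (adjusted 0.543). With 1 array left out, the unadjusted limma p of VCAM1 was 0.0261 without ischemia 1 and 0.0403 without control 3. It was 0.0797 to 0.0994 when any other array was left out.

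The partners of VCAM1 in leukocyte adhesion did not share its pattern as a list. Of 13 genes, 10 were tested, 6 were higher and 4 lower, 0 reached an unadjusted limma p under 0.05, and the median difference was 0.11. ICAM1, the other main adhesion molecule of activated endothelium, was at 0.29 ± 0.20 (SE), with 1.41, 1.78 and 1.68 in ischemia kidneys against 1.47, 1.23 and 1.32 in control kidneys. Endothelium is a site of VCAM1 expression, and 4 of 9 endothelial markers fixed for this comparison were tested. Of these 3 were higher, but only TEK, the angiopoietin receptor, had an unadjusted limma p under 0.05. Its p was 0.0298 (0.78 ± 0.29, named after its value was seen). The differences of CDH5, PECAM1 and VWF were small, at 0.20, 0.092 and -0.031, so the list showed no general rise. The log2 of the summed endothelial signal was 4.80, 4.31 and 4.93 in ischemia kidneys and 4.58, 4.52 and 4.51 in control kidneys. PECAM1 had the largest signal in this sum. The part of endothelial content in the VCAM1 values was not tested. In whole cortex, fewer cells of a type and less RNA per cell cannot be told apart. The named gene closest to VCAM1 over the 6 arrays was PLAU, the urokinase plasminogen activator (r 0.992), followed by TMTC3 (0.972) and BMP2 (0.969), with 23 genes over 0.9.

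**Figure D2:**
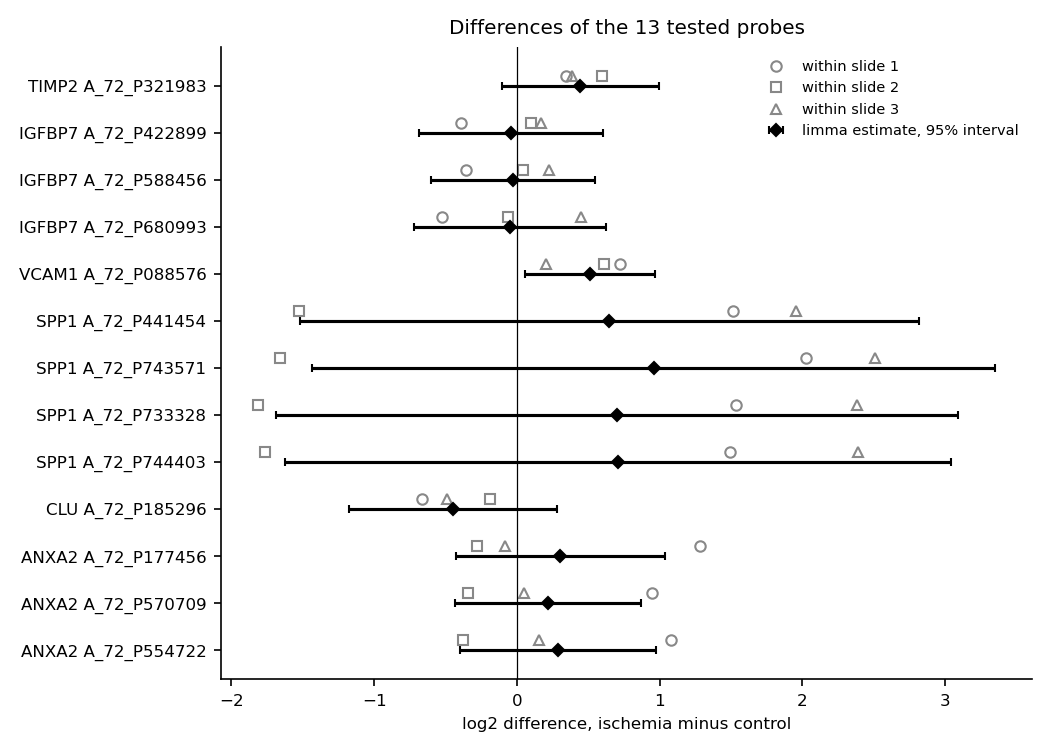
Log2 differences, ischemia minus control (horizontal axis), of the 13 tested probes: diamonds are limma estimates with 95% intervals and open symbols the difference within each slide. The interval of VCAM1 alone excludes 0 before adjustment, and the SPP1 intervals are the widest and their slide 2, on which ischemia 3 lay, falls below 0 while slides 1 and 3 fall above it.

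SPP1 showed the largest spread of the members, and the spread lay within the ischemia group. On A_72_P441454, at the end of the coding sequence, the level was 7.38, 7.38 and 3.76 in ischemia kidneys, against 5.86, 5.28 and 5.43 in control kidneys. Before scaling these were processed signals of 69521, 40876 and 3967 in ischemia kidneys and 14881, 10418 and 11467 in control kidneys. Ischemia 1 and 2 thus lay at least 2.85-fold above the highest control, and ischemia 3 lay 2.87-fold below the lowest. Between the kidneys of the ischemia group the gap was 12.3-fold.

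The other SPP1 probes also had ischemia 1 and 2 above and ischemia 3 below all controls. A_72_P743571 read 7.15, 7.22 and 3.17 in ischemia kidneys, against 5.19, 4.83 and 4.64 in control kidneys. A_72_P733328 read 4.74, 4.93 and 0.91 in ischemia kidneys, against 3.40, 2.72 and 2.35 in control kidneys. Its overlapping neighbour A_72_P744403 read 4.56, 4.68 and 0.78 in ischemia kidneys, against 3.19, 2.55 and 2.17 in control kidneys. Across the 4 probes ischemia 3 lay 12.3-fold to 15.8-fold below the lower of the other 2 ischemia kidneys, so the pattern did not rest on 1 spot or on 1 stretch of the transcript.

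**Figure D3:**
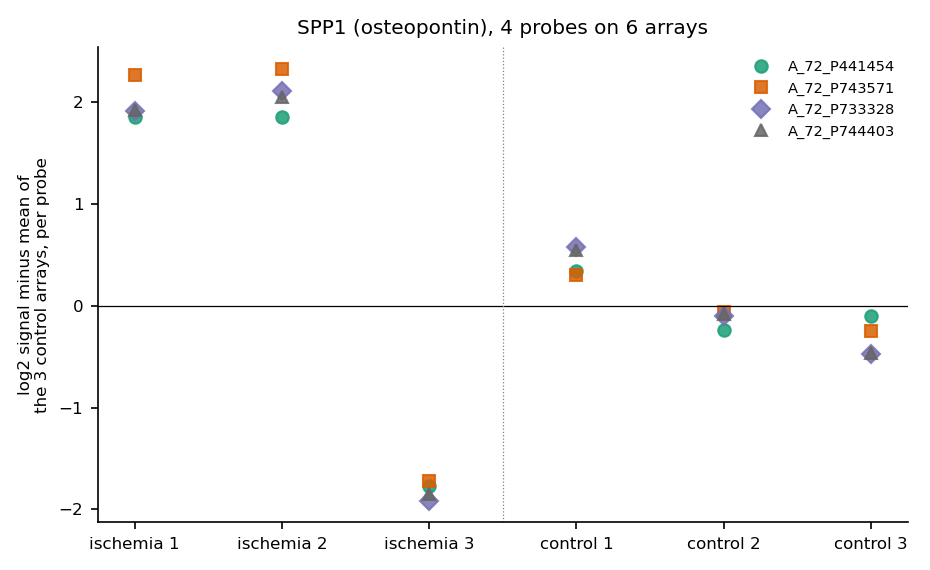
Log2 signal of each of the 4 SPP1 probes on each array, minus the mean of the 3 control arrays of that probe (vertical axis), for ischemia kidneys 1 to 3 and control kidneys 1 to 3. All 4 probes lie above every control in ischemia 1 and 2 and below every control in ischemia 3.

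Taken over all 6 arrays, the SPP1 difference was 0.65 ± 0.92 (SE, n = 3 per group) on its brightest probe, with a 95% interval of -1.52 to 2.82 (limma adjusted p = 0.947), and 0.70 to 0.96 on the other 3. The SD within the ischemia group was 2.09 on that probe, larger than that of 99.8% of all probes tested, against 0.30 in the control group, larger than that of 54.4%. Within slides the SPP1 differences were 1.51 on slide 1, -1.52 on slide 2 and 1.95 on slide 3. Ischemia 3 decided the value: without it the difference was 1.85 ± 0.25 (SE; limma adjusted p = 0.264), against 0.043 without ischemia 1 and 0.045 without ischemia 2. Without ischemia 3, all 4 SPP1 probes reached an unadjusted limma p under 0.05, against 7.89% of all probes in that fit, and none of the 4 passed after adjustment. The smallest gap among the 4 SPP1 probes, 3.62 on the log2 scale, was then taken as a cut, which these probes meet by construction. In ischemia 3, 14 of 25013 probes lay at least that far below both other ischemia kidneys, and 10 of them were not SPP1 probes. Most of these 10 were well above background on only 2 ischemia arrays.

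Osteopontin is made in the loop of Henle and distal tubule of normal kidney, and markers of these segments were set beside it. Of 7 such markers 3 were tested, and the log2 of their summed signal was 5.76, 6.24 and 5.48 in ischemia kidneys and 5.81, 5.46 and 5.64 in control kidneys. Ischemia 3 was thus lowest among the ischemia kidneys for this sum too. CALB1, a calcium-binding protein of the distal tubule, was 5.19, 5.52 and 4.13 in ischemia kidneys and 4.69, 3.63 and 4.70 in control kidneys. PVALB, another calcium-binding protein of that segment, was 0.58, 1.58 and -1.40 in ischemia kidneys and -0.16, 0.65 and 0.24 in control kidneys. Both were lowest in ischemia 3 among the ischemia kidneys, as SPP1 was, and PVALB was there below all controls. EGF, a product of the distal nephron, did not share this and was 4.02, 4.73 and 4.73 in ischemia kidneys and 4.88, 4.91 and 4.50 in control kidneys. The part of these segments in the SPP1 values was not tested. Genes that act with osteopontin and CD44 showed no call: of 16, 9 were tested, with 4 higher, 5 lower, 0 at an unadjusted limma p under 0.05 and a median difference of -0.05. ITGAV, the integrin chain that binds osteopontin, was at -0.34 ± 0.18 (SE), with 3.31, 3.27 and 3.55 in ischemia kidneys below 3.75, 3.71 and 3.68 in control kidneys. HAS3, a hyaluronan synthase, was dim, well above background on 2 ischemia and 1 control array, and its estimate was 0.63 ± 0.39.

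CLU lay lower in ischemia kidneys, within the spread of the groups. Its level was 3.05, 3.78 and 3.55 in ischemia kidneys, against 4.44, 3.74 and 3.55 in control kidneys. The groups overlapped, and control 1 stood highest. The difference was -0.45 ± 0.31 (SE, n = 3 per group), a signal 1.37-fold lower, with a 95% interval of -1.18 to 0.28 (limma adjusted p = 0.906). Within slides the CLU difference was -0.67, -0.19 and -0.49. Without control 1 the CLU difference was -0.18.

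ANXA2 was read by 3 probes that gave the same picture. On the brightest, A_72_P177456, the level was 4.60, 5.29 and 4.44 in ischemia kidneys, against 4.01, 4.73 and 4.69 in control kidneys. Ischemia 2 was the highest array and control 1 the lowest on all 3 probes, and these 2 arrays shared slide 1. The difference was 0.31 ± 0.31 (SE, n = 3 per group), with a 95% interval of -0.43 to 1.04 (limma adjusted p = 0.941), and the other probes were at 0.22 and 0.29. Within slides the brightest ANXA2 probe differed by 1.28, -0.28 and -0.09. Without ischemia 2 the ANXA2 difference was 0.05, and without control 1 it was 0.07. Of 11 other annexins 3 were tested, with 2 higher and 1 lower. ANXA1, an annexin with anti-inflammatory action, was at 0.40 ± 0.19 (SE), with 2.44, 2.55 and 2.19 in ischemia kidneys above 2.05, 2.00 and 1.92 in control kidneys, and its 8 probes ranged from 0.20 to 0.45. ANXA7 was at -0.08 ± 0.19.

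**Figure D4:**
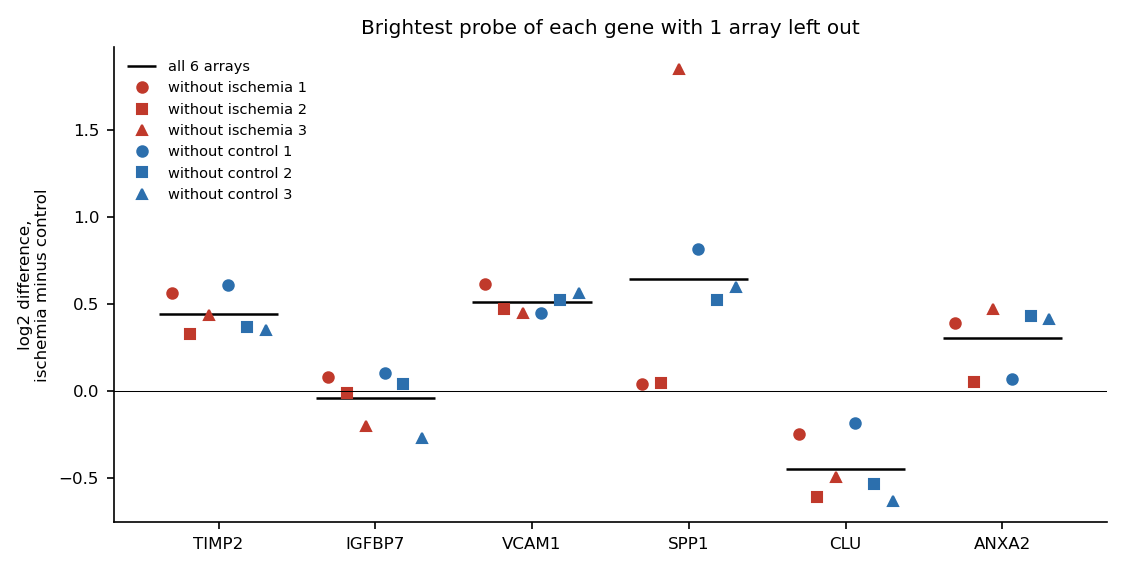
Log2 difference, ischemia minus control (vertical axis), of the brightest probe of each tested gene with all 6 arrays (line) and with 1 array left out (symbols; red for an ischemia and blue for a control array). TIMP2 and VCAM1 stay above 0 and CLU below 0 in all 6 fits, whereas SPP1 runs from 0.043 to 1.85.

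PLAUR itself could not be read, so its ligand and the other genes of plasminogen activation were examined. All 7 tested genes of the 11 in this list lay higher in ischemia kidneys, with a median difference of 0.51, on the brightest probe of each. For VTN (vitronectin) this was a difference of 0.0038, with its 6 tested probes between -0.71 and 0.069, and PLG (plasminogen) was at 0.26 ± 0.61 (SE); both turned lower in some fits with 1 array left out. In this list 3 genes were higher at an unadjusted limma p under 0.05, which 2.99% of all probes reached in that direction. PLAU, the ligand of PLAUR, was 0.66, 1.05 and 1.14 in ischemia kidneys, against 0.05, 0.12 and 0.39 in control kidneys. The groups did not overlap, and the difference was 0.76 ± 0.22 (SE, n = 3 per group; limma adjusted p = 0.652). SERPINE2, an inhibitor of plasminogen activators, was 0.59, 0.67 and 0.74 in ischemia kidneys, against -0.10, 0.02 and 0.18 in control kidneys, a difference of 0.63 ± 0.18 (limma adjusted p = 0.659), and a second probe was at 0.28. PLAT, the tissue plasminogen activator, was the third and was named after its value was seen (0.76 ± 0.23). None of the 3 passed over all probes.

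SOX9 had processed signals of 3.89, 4.74 and 3.96 in ischemia kidneys and 4.54, 3.89 and 3.07 in control kidneys. None of these was well above background, so SOX9 has no measured level and no fold is given. Of 15 transcription factors set beside SOX9, not all of them of the tubule, 5 were tested. Of these 1 was higher, 4 were lower and 0 reached an unadjusted limma p under 0.05 (median difference -0.15). HNF4A, which maintains the proximal tubule programme, was at -0.51 ± 0.34 (SE) and SOX18, an endothelial relative of SOX9, at -0.51 ± 0.25. For the absent names, 1 probe was described in the files as vimentin and 1 as CD44 molecule, both outside the rule for members. The vimentin probe read 4.48, 4.52 and 5.45 in ischemia kidneys, against 4.94, 4.79 and 4.51 in control kidneys (difference 0.07 ± 0.31, SE), and was highest in ischemia 3. The CD44 probe read -1.13, -0.45 and -1.40 in ischemia kidneys, against -0.34, -0.54 and -0.79 in control kidneys (difference -0.43 ± 0.29). Both groups overlapped on each. Of 10 other intermediate filament genes, 3 were tested, and none reached an unadjusted limma p under 0.05. DES (desmin) was at 0.19 ± 0.20 on its brightest probe, the lowest of its 4 probes, which ranged up to 0.84. LMNA (lamin A/C) was at 0.19 ± 0.24, with a mean of -0.04 over its 3 probes.

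Genes of the injured tubule other than the members were also mixed. Of 26 symbols listed, 13 were tested, with 9 higher, 4 lower, a median difference of 0.10 and 0 at an unadjusted limma p under 0.05. CTGF and CCN2 in that list name the same gene, as do CYR61 and CCN1, and only CCN2 and CYR61 were tested. CCL2, a monocyte chemokine, had the smallest p and lay lower, with 1.17, 0.93 and 0.93 in ischemia kidneys against 1.06, 2.39 and 2.01 in control kidneys (-0.81 ± 0.34, SE). The slides gave CCL2 differences of -0.13, -1.46 and -0.84. In the fit that blocks on slide, CCL2 had an unadjusted limma p of 0.0323 (adjusted 0.492). GDF15, a stress cytokine, was 1.71, 1.46 and 1.27 in ischemia kidneys against 1.40, 0.55 and 0.89 in control kidneys (0.53 ± 0.27). Over all 9 partner lists, 66 genes were tested. Of these 38 were higher and 28 lower, 3 were higher at an unadjusted limma p under 0.05 (4.55%, against 2.99% of all probes), 0 were lower without the slide block, CCL2 being lower with it, and 0 passed after adjustment.

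**Figure D5:**
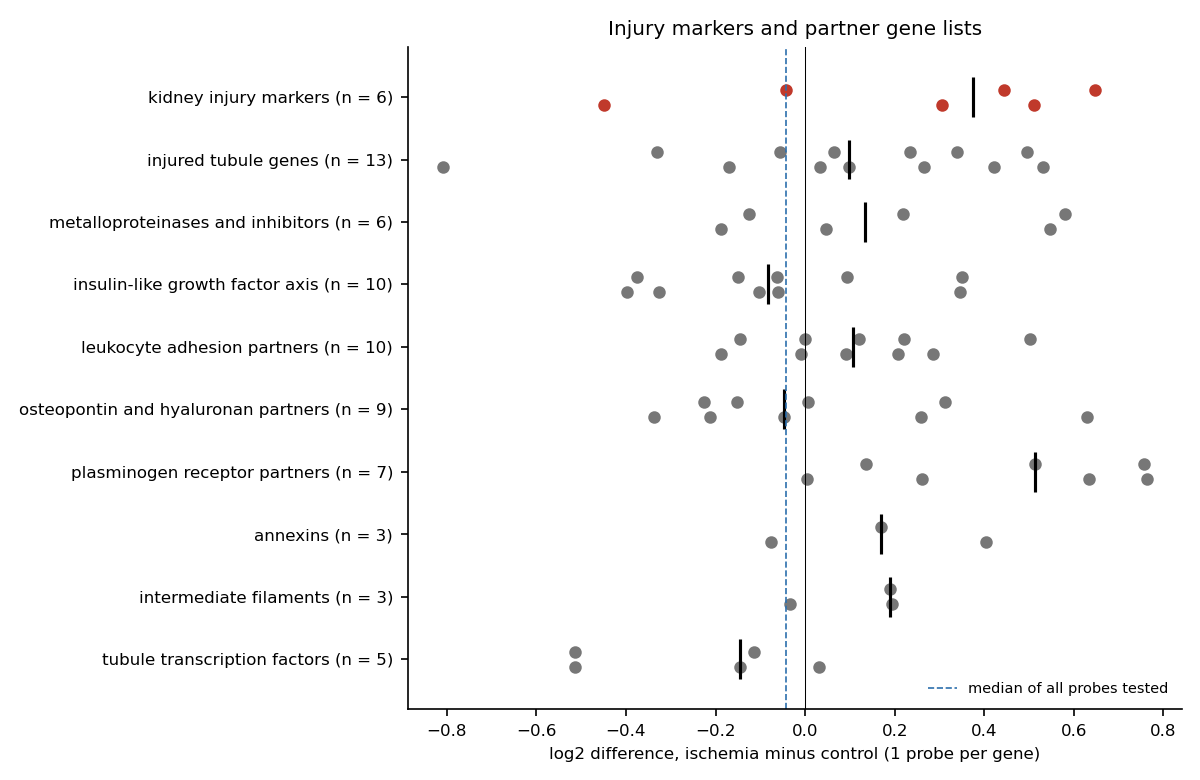
Log2 difference, ischemia minus control (horizontal axis), of each tested gene (1 probe per gene) in the injury markers (red) and 9 partner lists (grey), with each list's median as a black bar and the median of all probes tested, -0.04, as a dashed line. The plasminogen receptor partners lie at or above 0, and the other lists spread to both sides.

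Facts of the series that touch these values were few. Between 52.6% and 61.4% of the spots that are not controls were well above background per array, and no spot was saturated. Every ischemia array sat at position 3 of its slide and every control array at position 4, which means that group and position cannot be told apart. Proximal tubule markers, which define most of the cortex, lay lower in ischemia kidneys. Of 9 tested 8 were lower, and SLC22A6, ANPEP, GATM, MIOX and SLC34A1, named after their values were seen, had an unadjusted limma p under 0.05, which 3.31% of all probes reached in that direction. For SLC34A1 the difference was -0.64 on the brighter probe and 0.35 on the other. The log2 of their summed signal was 9.08 to 9.31 in ischemia kidneys and 9.36 to 9.72 in control kidneys. Leukocyte markers summed to 2.20 to 2.89 in ischemia kidneys and 2.47 to 2.53 in control kidneys, but 2 of the 5 tested lay apart in opposite directions. CD163, a scavenger receptor of macrophages, was 2.41, 1.77 and 1.18 in ischemia kidneys and 0.28, 0.37 and 0.47 in control kidneys (1.42 ± 0.32, SE; limma adjusted p = 0.496). CD247, a chain of the T cell receptor complex, was -0.13, 0.47 and 0.44 in ischemia kidneys and 1.59, 1.64 and 1.53 in control kidneys (-1.33 ± 0.23; limma adjusted p = 0.382). Neither pair of groups overlapped. Fibroblast and mural markers summed to 6.82 to 7.08 in ischemia kidneys and 6.51 to 6.76 in control kidneys. ACTA2 (smooth muscle actin) had the largest signal in this sum. Of the 4 tested markers in this list, 3 were higher in ischemia kidneys and only COL1A2 was lower. COL1A2, a collagen chain in the same list, was -3.90, -3.24 and -3.35 in ischemia kidneys, below -2.35, -1.78 and -1.43 in control kidneys (-1.64 ± 0.31, SE; limma adjusted p = 0.385). CD163, CD247 and COL1A2 were named after their values were seen. COL1A2 was read by a single dim probe, and its difference ran from -1.89 to -0.57 over the settings tried. With single arrays left out it ran from -1.89 to -1.43. The part of these shifts in the member values was not tested.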

How the data were processed

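Each scanner file holds the spots of 1 Cy3 array. Per the file headers, Agilent Feature Extraction 10.10.1.1 made the intensity values by removing background and a spatial trend, with no scaling between arrays. Version 11.5.1.1, limma and R 2.15.2 stand in the submitters' processing notes. A deposited table holds the authors' log2 values, and how these were normalized was not given in the sources used here. It has 36796 probes, 7 of them members, and followed the log2 median spot signal (Spearman 0.992 to 0.993), so it served as an alternative.

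Control spots and outlier spots were left out, processed signals were put on the log2 scale, the 75th percentile of each array was subtracted, and spots of a probe were averaged. Probes well above background on at least 3 of 6 arrays with at least 5 values were kept (25013 of 43603). limma 3.58.1 in R 4.3.3 (lmFit, eBayes, two-sided) compared the groups, with Benjamini-Hochberg adjustment over these probes. The fit was tested on simulated data. The members and gene lists were chosen with earlier results of these data known. Genes in lists were matched by gene name or, for 10 probes, by RefSeq accession through a gene table, and were represented by their brightest probe. The text names every member, the 2 genes of smallest p in each partner list, and the 3 genes most like TIMP2, IGFBP7 and VCAM1, except for 1 gene that is not reported here. Alternatives were median centring, quantile normalization, normexp with offset 50, the deposited values, other filters, keeping outlier spots, blocks by slide or by replicate number, array weights, a variance trend, a gene's probes averaged, and each array left out.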

Additional observations from a re-analysis of the deposited data

How the results depend on the processing

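No member probe passed under any setting tried. The number of all probes called was 1 with the settings above, 11 with median centring, 3 with normexp and quantile normalization, 4 in the deposited values, 3 with probes well above background on all arrays, 3 with a variance trend and 868 with array weights. It was 0 with quantile normalization, without a filter, with slide as a block and with the replicate block, and 0 to 1 with 1 array left out. Member probes at an unadjusted limma p under 0.05 numbered 1 with the settings above, 2 with normexp, in the deposited values and with array weights, 0 with quantile normalization, without a filter, with slide as a block and with the replicate block, and 0 to 4 with 1 array left out (4 without ischemia 3). In the deposited values VCAM1 was at 0.69 (limma adjusted p = 0.227) and TIMP2 at 0.62 (limma adjusted p = 0.294). The median difference of all probes was -0.04 with the 75th percentile and 0.11 with median centring, and the members lay 0.35 above it in both. The median difference of the member probes ran from 0.019 to 0.45 with 1 array left out and was lowest without ischemia 2; it was 0.083 with array weights.

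Differences near 0 changed sign. With median centring ANXA7 was at 0.074, IGFBP5 at 0.088, IGFBP7 at 0.11, RAB27A at 0.062 and TCTN2 at 0.061. With quantile normalization IGFBP7 was at 0.0025, RAB27A at 0.016 and PVALB at -0.012. In the deposited values IGFBP5 was at 0.185 and IGFBP7 at 0.184. The mean of all LMNA probes was -0.035, and vimentin was at -0.063 and PVALB at -0.19 with array weights. With 1 array left out the range was -0.15 to 0.0090 for ANXA7, -0.46 to 0.24 for IGFBP5, -0.27 to 0.10 for IGFBP7, -0.25 to 0.030 for RAB27A, -0.32 to 0.062 for TCTN2, -0.25 to 0.24 for vimentin, -0.65 to 0.84 for PVALB, -0.26 to 0.20 for VTN and -0.33 to 0.93 for PLG. The cause was not tested. With array weights, where 868 of all probes passed, CCL2, GDF15, PLAU and SERPINE2 did (limma adjusted p = 0.0414, 0.0495, 0.0395 and 0.0425). So did PLAT, CD163, CD247, COL1A2, ANPEP, MIOX and SLC34A1 (0.0205 to 0.0467) and S100A12 (0.0431). The S100A12 probe was well above background on only 2 ischemia arrays and 1 control array. Deviations of same-numbered arrays correlated at -0.35, -0.17 and -0.05, against 0.34, 0.10 and 0.33 for arrays of the same slide. No same-numbered arrays shared a slide, so these values cannot show whether same-numbered kidneys came from the same pig. Dim probes, SOX9 among them, are limited by background.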

Other observations

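S100A12, a calcium-binding protein of neutrophils and monocytes, was among the 14 probes that lay far below both other ischemia kidneys in ischemia 3, as SPP1 did. It was named after its values were seen. Its probe read 2.30, 2.96 and -5.18 in ischemia kidneys, against -4.55, -5.95 and -3.65 in control kidneys. The signal was well above background on 2 of the 3 ischemia arrays and 1 control array, so neither a fold nor the size of the gap is given. The corresponding counts of probes that far below both other arrays of their group were 8 in ischemia 1, 2 in ischemia 2, and 3, 1 and 1 in control kidneys 1 to 3.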
